A study of Rattus norvegicus with 60 samples.

Results

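Of 60 RNA-seq libraries labelled as rat lung, 3 carried a profile led by albumin, the main plasma protein that hepatocytes secrete. These 3 were chosen by one value, a share of Alb above 5% of all counts, and are called liver-profile libraries here. They were air_045 replicate 5, MWCNT_090 replicate 5 and MWCNT_090 replicate 6. The labels give lung as their tissue and mark all 3 as outliers. A liver origin is therefore inferred from the transcripts and is not stated by any label. The 3 libraries were set beside 9 air lung libraries of the same exposure sets that have no outlier label, namely air_045 replicates 1, 2 and 4 and air_090 replicates 1 to 6.

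The study measured the lung transcriptome after inhalation of multi-walled carbon nanotubes (MWCNT). All animals were male Fischer 344 rats, 3 months of age, and no allele or further agent is named for any group. They breathed filtered air or MWCNT in whole-body chambers for 6 hours on each of 3 days and were killed 1 day after the last exposure. MWCNT_090 rats received a cumulative 90 mg/m3, air_090 rats breathed air beside them, and air_045 rats breathed air beside a group that received 45 mg/m3. RNA came from a piece of tissue, went into a stranded mRNA library with 12 PCR cycles, and was counted per gene. Each library carries an animal number of its own, so values of 1 group were taken as separate rats and p-values measure the spread between them.

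The liver makes most of the proteins of blood plasma, clears ammonia through the urea cycle, keeps blood glucose up between meals, turns cholesterol into bile acids and breaks down drugs with cytochrome P450 enzymes. Hepatocytes hold these functions under a set of transcription factors that includes HNF4A and the FOXA factors. The tissue also holds Kupffer cells (its macrophages), sinusoidal endothelium, stellate cells and the cholangiocytes of the bile ducts. Lung is led instead by surfactant made in alveolar type 2 cells, flat type 1 cells, club and ciliated cells of the airways, and a dense capillary endothelium, with NKX2-1 as a central epithelial regulator.

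To show the regulatory side of both tissues, the 250 bases before the start site are printed for the fibrinogen chain gene Fgb, among the high genes of the liver-profile libraries, and for the club cell gene Scgb1a1. The sequences are RefSeq's, from the minus strand of build GRCr8, at chr2:170700876-170701125 for Fgb and chr1:215409687-215409936 for Scgb1a1, written 5′ to 3′. Capitals mark the letters searched: TGTTTAC, a FOXA site, and CTCAAG, the core bound by NKX2-1, each on both strands.
Fgb: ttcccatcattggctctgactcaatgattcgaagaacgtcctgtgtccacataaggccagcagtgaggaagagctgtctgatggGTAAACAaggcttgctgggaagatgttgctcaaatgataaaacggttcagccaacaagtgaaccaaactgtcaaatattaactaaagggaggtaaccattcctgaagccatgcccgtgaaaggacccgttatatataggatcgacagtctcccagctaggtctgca
Scgb1a1: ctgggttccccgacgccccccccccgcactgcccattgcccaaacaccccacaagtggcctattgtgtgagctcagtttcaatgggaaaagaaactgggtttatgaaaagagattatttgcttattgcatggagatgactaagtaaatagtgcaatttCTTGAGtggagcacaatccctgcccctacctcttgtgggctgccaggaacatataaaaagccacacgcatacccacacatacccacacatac
In Fgb the capitals are the reverse complement of TGTTTAC and began 166 bases before the start site, at position -166. In Scgb1a1 the reverse complement of CTCAAG began at position -92.

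Over the whole table of 33469 rat promoters of 300 bases (250 before to 50 after the start), 3.78% held TGTTTAC and 15.8% held CTCAAG. Among the plasma protein and coagulation genes described below, 27 of 35 matched a promoter. Of these 27, 4 (14.8%) held TGTTTAC and 3 (11.1%) held CTCAAG. Fgb was the exception among the most abundant genes: of the 20 highest in the liver-profile libraries 14 matched a promoter, and 1 of these, Fgb, held TGTTTAC. Of 31 matched genes of alveolar type 2, type 1 and club cells, 2 (6.45%) held TGTTTAC and 9 (29%) held CTCAAG. A match says only that the letters are present in this window.

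The share of Alb was 11.9% for air_045 replicate 5. The MWCNT_090 libraries held 12.7% (replicate 5) and 12.1% (replicate 6). The 95% Wilson intervals were 11.892 to 11.928%, 12.69 to 12.733% and 12.068 to 12.111%, and cover counting error only, since reads were counted without molecular identifiers. The 9 lung libraries held 0.000282 to 0.00346% (median 0.00149%). The lowest value inside the threshold was thus 11.9%, and the highest outside it was 0.224%, in air_045 replicate 6, which also has an outlier label. No library lay between 0.224% and 11.9%.

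**Figure D1:**
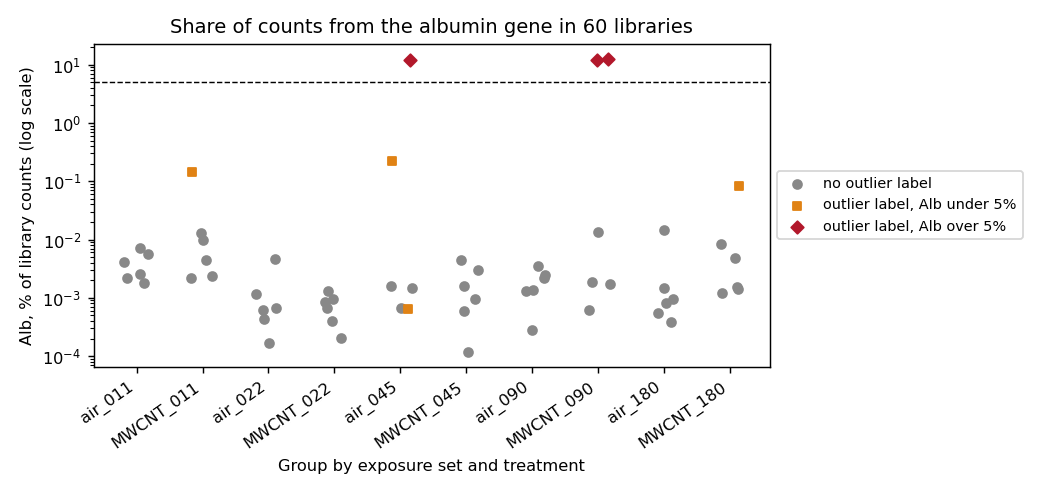
Share of all counts that came from Alb in each of the 60 libraries, in percent on a log scale, by exposure set and treatment; each point is 1 library and the dashed line is the 5% threshold. The 3 liver-profile libraries (diamonds) lie between 11.9 and 12.7%, and 3 of the other 4 libraries with an outlier label lie between 0.0827 and 0.224%.

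The liver-profile libraries held 12144580, 9516381 and 8583425 counts, in the order used throughout (air_045 replicate 5, then replicates 5 and 6 of MWCNT_090). The 9 lung libraries held 10039448 to 13669995. Few genes dominated: the 10 most abundant took 24.6 to 29.6% of counts against 5.81 to 6.93% in lung. The 100 most abundant took 49.2, 50.5 and 53.3%, against 17.5 to 18.4%. Genes at 1 CPM (1 count in 1000000 of the library) or more numbered 11305 to 12042, against 14526 to 14742 in lung.

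Across 15343 genes the 3 libraries resembled each other more than lung. On a log2(CPM + 1) scale, Pearson's r across genes was 0.957 to 0.984 among them, 0.990 to 0.994 among lung libraries, and 0.467 to 0.530 between the 2 kinds. Genes are not independent replicates, so these values describe the libraries. The 3 were not copies of one library: their pairwise chi-square per degree of freedom was 20.9 to 76.8, against 2.60 to 9.82 for lung pairs of 1 group.

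A gene is called higher or lower below when the group means differ at least 4-fold and no library of one group overlaps the other. The share of Alb chose the libraries, so this comparison has no test and is a description. Exceptions within a list, such as its lower members, and Apob were named after their values were seen. Of 15343 genes at 1 CPM or more in either group, 1064 were higher (6.93%), 6971 were lower (45.4%) and 7308 were neither. The median log2 ratio over all of them was -1.80. The higher genes held 62.9 to 66.1% of the liver-profile counts and 1.32 to 1.42% of the lung counts. The lower genes held 3.62 to 4.99% and 53.5 to 54.8%.

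The balance of higher and lower calls depends on scaling. CPM divides by the library total, so the CPM of one gene falls as the share of the others grows. With TMM scaling log2 ratios moved up by a median of 1.59, and 2199 genes were higher and 3659 lower. Higher genes made up 13.2% of calls by library total and 37.5% by TMM. Ratios in the text are on library totals, and lists whose direction turns under TMM are named. CPM is not corrected for gene length, so levels are compared between libraries and not between genes. In bulk tissue, fewer cells of a type and less RNA per cell cannot be told apart.

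The carriers and iron proteins of plasma formed the most abundant group. All 18 listed genes were at 1 CPM or more and all 18 were higher, with a median log2 ratio of 12.40. Together they took 24.6, 26.8 and 29.3% of counts, against 0.0253 to 0.0334% in lung. Alb stood at 119102, 127115 and 120893 CPM, with a lung range of 2.82 to 34.6 CPM (median 14.8). Groups lay far apart, with a fold of 7446 between the means.

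Ttr, which carries thyroxine and retinol-binding protein, had 7321, 11138 and 13209 CPM in the liver-profile libraries and 0.273 to 3.33 CPM (median 0.797) in lung. It was lowest in air_045 replicate 5 and still 9025-fold above lung on the means. Tf, the iron carrier transferrin, was at 33341, 32140 and 45771 CPM. Lung libraries also held Tf, at 68.5 to 88.1 CPM (median 77.4), so its ratio was 483. Serpina1, the elastase inhibitor that protects lung tissue, stood at 14260, 19518 and 24241 CPM against 18 to 41.2 CPM (median 25.4). All 3 of these were highest in MWCNT_090 replicate 6.

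Gc, the vitamin D carrier, was at 11687, 12860 and 10929 CPM with 0.182 to 2.91 CPM (median 1.13) in lung. Ahsg, the mineral-binding fetuin-A, was at 12892, 14826 and 16350 CPM with 0.818 to 4.91 CPM (median 1.91) in lung. Hpx, which binds free heme, was at 6651, 7496 and 9734 CPM with 5.88 to 9.15 CPM (median 6.9) in lung. Apoa1, the main protein of high-density lipoprotein, was at 1032, 1705 and 2518 CPM with 0.512 to 1.5 CPM (median 1.02) in lung, and its highest library had over 2 times the level of its lowest. Apoe, which carries lipid in both tissues, showed a smaller gap: 13424, 15032 and 22677 CPM against 314 to 496 CPM (median 403), a 42.3-fold difference. Sepp1, the selenium carrier, was abundant in both kinds of library. It stood at 6300, 6261 and 4163 CPM against 3634 to 4262 CPM (median 3754) and was called neither higher nor lower.

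**Figure D2:**
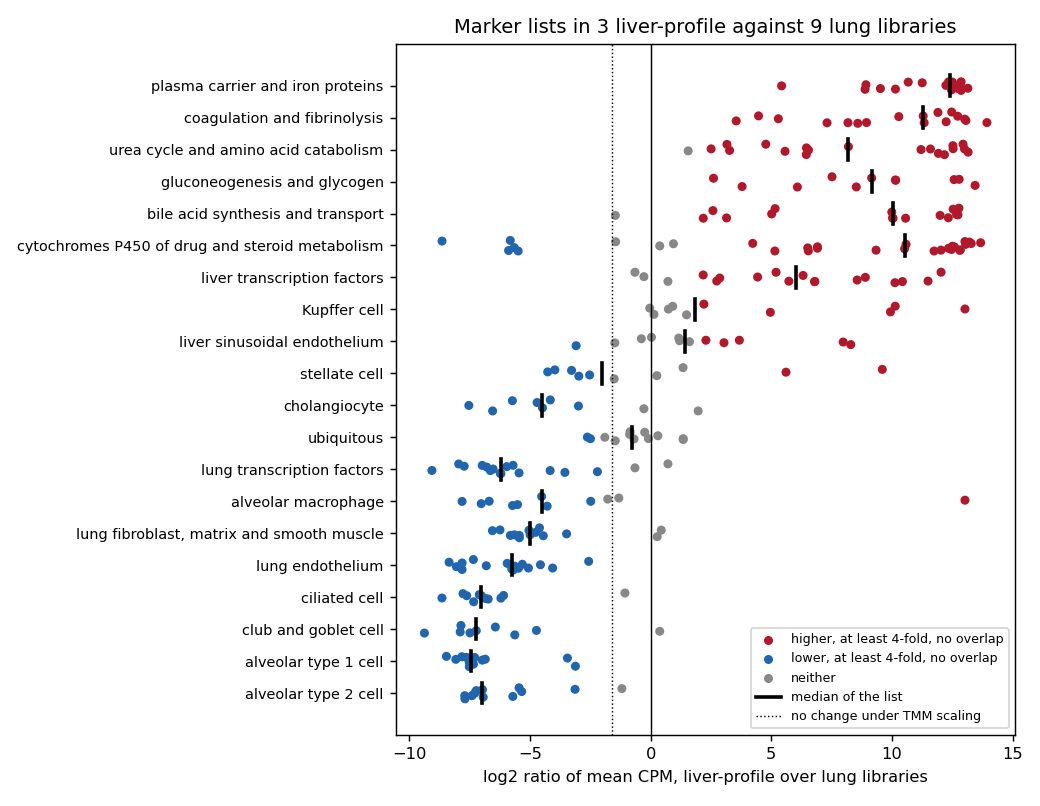
Log2 ratio of mean CPM, liver-profile over lung libraries, for every measured member of 20 gene lists; each point is 1 gene, coloured by call, bars are list medians, the solid line is no difference by library total and the dotted line no difference by TMM. The plasma, coagulation and enzyme lists lie to the right with medians of 8.19 to 12.40, and the alveolar and airway lists lie to the left with medians of -6.97 to -7.46.

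Coagulation and fibrinolysis genes followed: 17 of 17 were higher, with a median log2 ratio of 11.29. The fibrinogen beta chain gene Fgb stood at 5773, 6414 and 4918 CPM and the alpha chain gene Fga at 5925, 5273 and 3892 CPM. Lung held at most 1.58 CPM of either. Fgg, the gamma chain, was at 4505, 4845 and 4741 CPM, but lung held 85.6 to 159.8 CPM (median 117), so its ratio was 39.1 where that of Fgb was 8533. The 3 chains, which form one protein, thus had unequal ratios. Plg, the plasmin precursor, stood at 4259, 4131 and 4215 CPM and was the steadiest of these, with a mean of 4202 ± 65.5 CPM (SD, n = 3). F9, the factor missing in hemophilia B, was at 1027, 912 and 313 CPM and lowest in MWCNT_090 replicate 6, with 5 counts in all 9 lung libraries.

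Of 14 complement genes 11 were higher, with a median log2 ratio of 4.77, and the other 3, C4a and Cfb among them, were neither. C3, the hub of the cascade, was at 14914, 12427 and 13795 CPM against 367 to 451 CPM (median 400.4). C8a, a subunit of the membrane attack complex, stood at 1017, 1008 and 646 CPM against 0.0866 to 0.398 CPM (median 0.199). Cfb, the protease of the alternative pathway, was at 1857, 1906 and 2179 CPM while lung already held 653 to 871 CPM (median 737). By TMM all 14 were higher.

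Acute phase genes, which hepatocytes make in response to inflammatory cytokines, were higher in 11 of 15 and lower in 2, with a median log2 ratio of 9.69. The hemoglobin scavenger Hp stood at 9547, 12870 and 16732 CPM against 33.7 to 51.1 CPM (median 42.8). Crp was at 6104, 4256 and 3126 CPM and Itih3 at 5923, 5276 and 5150 CPM, with lung at or below 2.78 CPM for both. Lcn2 and Saal1, the 2 lower members, were at 0.42 CPM or less in each liver-profile library. A2m had 0 counts in the 3 libraries, which allows up to 0.0992 CPM over the group.

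Enzymes of nitrogen and sugar metabolism were nearly all higher: 18 of 19 for the urea cycle and amino acid catabolism (median log2 ratio 8.19) and 11 of 11 for gluconeogenesis and glycogen (9.15). Cps1, which fixes ammonia at the entry of the urea cycle, was at 3958, 2888 and 2507 CPM against 0.173 to 0.696 CPM (median 0.339). Ass1, a later step of the cycle, stood at 3100, 2652 and 3496 CPM against 30.7 to 40.7 CPM (median 34.7). Hpd, of tyrosine breakdown, was at 2506, 2350 and 2938 CPM with 0 to 0.665 CPM (median 0.273) in lung. Pck1, which controls gluconeogenesis, was at 1856, 909.5 and 1781 CPM. G6pc, which releases free glucose, was at 594, 316 and 636 CPM. For both, MWCNT_090 replicate 5 was the lowest library. Pklr, the liver form of pyruvate kinase, stood at 884, 784 and 631 CPM, with 7 counts over the 9 lung libraries.

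Bile acid synthesis and transport genes were higher in 15 of 16 (median log2 ratio 10.03). Baat, which conjugates bile acids to amino acids, was at 1213, 1120 and 1193 CPM against 0 to 0.538 CPM (median 0.199). The uptake transporter Slc10a1 stood at 597, 589 and 419 CPM against 0 to 0.298 CPM (median 0). Akr1d1, a reductase of the same pathway, was the least even, at 1242, 588 and 194 CPM. Fatty acid, ketone and lipid genes were higher in 15 of 24 and lower in 1, with a median log2 ratio of 2.57. Fabp1, the fatty acid carrier of liver, was at 2168, 3810 and 2808 CPM against 0.182 to 0.717 CPM (median 0.398). Fasn, the fatty acid synthase that type 2 cells also use for surfactant lipid, was at 2568, 2099 and 1581 CPM against 677 to 965 CPM (median 828) and was neither. Scd1 and Scd, listed as 2 symbols for stearoyl-CoA desaturase, went opposite ways: Scd1 was at 8520, 5498 and 5569 CPM against 487 to 988 CPM (median 840.1), and Scd at 8.56, 14.8 and 7.92 CPM against 973 to 1747 CPM (median 1529). How reads were divided between these symbols in counting was not tested.

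Cytochrome P450 genes split by tissue. Of 31 at 1 CPM or more, 23 were higher and 5 lower, with a median log2 ratio of 10.52. The 5 lower ones were Cyp2b1, Cyp2a3, Cyp4b1, Cyp2s1 and Cyp1b1. Cyp4b1 was at 12.8, 11.2 and 13.1 CPM against 569.9 to 666 CPM (median 633), and Cyp2b1 at 10.9, 8.93 and 6.87 CPM against 422 to 567 CPM (median 505). Cyp2a3 had 2 counts in the 3 libraries against 10.5 to 51.1 CPM (median 23.7) in lung, a ratio of 423 for lung over the pooled libraries with a 95% counting interval of 117 to 3492. Cyp2e1, the ethanol-oxidizing enzyme of liver, was higher at 2637, 1860 and 1572 CPM against 15.6 to 29.4 CPM (median 21.9). Cyp2f4, a P450 on the club cell and periportal lists, did not separate the groups: 62.6, 71.6 and 80.8 CPM against 32.5 to 86.7 CPM (median 51.3). The Cyp2a, Cyp2b, Cyp2c, Cyp2d and Ugt families hold near-identical copies, so the division of reads among their members is uncertain. Conjugation enzymes were higher in 15 of 19 and lower in none, with a median log2 ratio of 10.09.

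Rat liver differs between the sexes under the pattern of growth hormone release, most of all in its P450 enzymes. All 12 genes known to be higher in male rat liver were higher here than in lung (median log2 ratio 12.54). Cyp2c11, the main male-specific P450, stood at 3131, 3170 and 2591 CPM against 0.0909 to 0.848 CPM (median 0.53). Rup2, a urinary protein gene of the same list, was at 3309, 3987 and 4182 CPM, and Car3, a carbonic anhydrase, at 3231, 3329 and 2491 CPM. Cyp2c12, the female-specific counterpart, was at 18.6, 26.4 and 11.8 CPM. Lung had 0 counts of Cyp2c12 in 9 libraries, which allows up to 0.0292 CPM over the group, so it was at least 647-fold higher. Of the genes listed as female-biased all 7 at 1 CPM or more, Cyp2c12 included, were higher, among them Cyp2c7 at 2126, 2373 and 1547 CPM. The estrogen sulfotransferase ste2, placed on the same list, was at 2306, 1843 and 1346 CPM. All 3 animals were male per the labels, so the sex bias of listed genes, that of ste2 included, was not tested.

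Liver transcription factors were higher in 15 of 18, with a median log2 ratio of 6.02. Hnf4a, the nuclear receptor that maintains hepatocyte identity, was even across the 3 libraries at 519, 526 and 589 CPM and lay at 0.0832 to 0.359 CPM (median 0.177) in lung. Creb3l3 and the drug-sensing receptor Nr1i2 stood at 229, 324 and 431 and 138, 139.5 and 99.8 CPM. Cebpa, which both tissues use, was at 321, 273 and 419.6 CPM against 63.8 to 85.6 CPM (median 75). Foxa1 and Foxa2, which epithelia of both organs share, were neither higher nor lower. Onecut1 was uneven, at 244, 10.9 and 4.31 CPM, and is taken up with the exposure comparison.

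**Figure D3:**
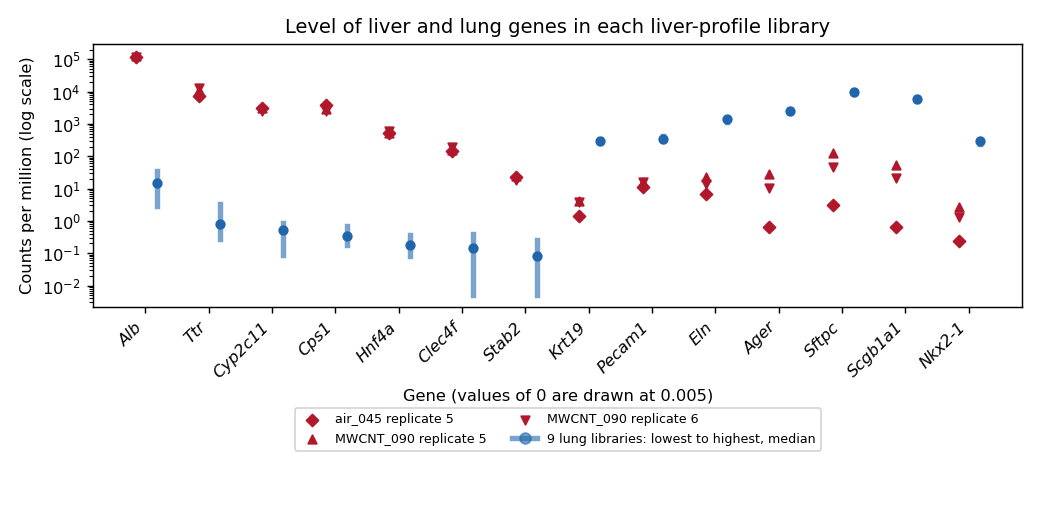
Level of 14 genes in CPM on a log scale; red symbols are the 3 liver-profile libraries and blue bars run from the lowest to the highest of the 9 lung libraries with the median as a point. From Alb to Stab2 all red symbols lie above the blue bars, and from Krt19 to Nkx2-1 all lie below them, with air_045 replicate 5 lowest for Sftpc, Scgb1a1, Ager and Nkx2-1.

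Genes of both ends of the liver lobule were present. Hepatocytes near the portal vein favour urea and glucose synthesis, and those near the central vein favour glutamine synthesis and P450 activity. Of 12 periportal genes 11 were higher (median log2 ratio 8.30), and of 12 pericentral genes 6 were higher and 3 lower (2.63). The 3 lower ones, Lgr5, Axin2 and Tbx3, are Wnt-pathway genes that lung expresses as well, and by TMM 8 were higher and none lower. Glul, the glutamine synthetase of pericentral cells, was at 383, 304 and 405 CPM against 307 to 410.2 CPM (median 327) and overlapped lung. Cyp1a2, another pericentral gene, was at 564, 387 and 452 CPM against 0 to 0.179 CPM (median 0).

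Kupffer cell genes were higher in 5 of 10 and lower in none. Clec4f, the most specific of them in rodents, stood at 147.1, 155 and 192 CPM against 0 to 0.398 CPM (median 0.146). Marco, a scavenger receptor, was at 68.7, 61.4 and 72.3 CPM in the liver-profile libraries, with at most 0.0732 CPM in any lung library. Cd5l was at 95.5, 79.4 and 90.8 CPM against 0 to 0.265 CPM (median 0.0832). The complement component C1qa, made by macrophages of many tissues, was at 79.5, 87.2 and 112.2 CPM against 46.5 to 58.2 CPM (median 47.6). The same 3 libraries were low in alveolar macrophage genes: 8 of 11 were lower, with Marco, which stands on both lists, the only higher one. Abcg1, a cholesterol exporter of that list, was at 6.42, 5.46 and 9.09 CPM against 275 to 356 CPM (median 309).

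Sinusoidal endothelial genes were higher in 5 of 12 and lower in 1. Stab2, the hyaluronan scavenger receptor of these cells, was at 22.3, 24.1 and 18.6 CPM against 0 to 0.265 CPM (median 0.0848), and Dnase1l3, a nuclease, was at 20.3, 21.9 and 24.6 CPM against 1.36 to 3.55 CPM (median 2.79). Lyve1, which lymphatic vessels also carry, was the lower one, at 45.2, 50.2 and 19.9 CPM against 282 to 395 CPM (median 313), and by TMM 8 were higher and none lower. All 15 genes of lung endothelium were lower (median log2 ratio -5.70). Vwf, the clotting factor of larger vessels, was at 13.3, 21.2 and 21.1 CPM against 1042 to 1245 CPM (median 1142), and Ace, the angiotensin-converting enzyme of lung capillaries, at 0.576, 9.56 and 2.8 CPM against 1240 to 1555 CPM (median 1437).

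Stellate cell genes gave 2 higher (Colec11, Colec10) and 5 lower of 10, with a median log2 ratio of -2.02 that became 0.11 by TMM, with 4 higher and 2 lower. Colec11, a soluble lectin, was at 53.4, 56 and 63.8 CPM against 0 to 0.179 CPM (median 0.0848). Lrat, which stores vitamin A, was at 32.7, 20.9 and 6.99 CPM against 10.7 to 21.5 CPM (median 18.3). Bile duct genes were low: 7 of 9 were lower and none higher (by TMM 6 and 1). Krt19 stood at 1.4, 4.2 and 3.96 CPM and Krt7 at 0.0823, 2.84 and 0.932 CPM, against 264 to 354 CPM (median 297) and 216 to 256 CPM (median 239). Airway epithelium expresses both keratins, so lung is a high reference for this list.

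Genes of other organs were few. None of 10 kidney genes reached 1 CPM in either group, and 6 of the 10 had 0 counts in the liver-profile libraries. Of 10 exocrine pancreas genes 2 reached 1 CPM and none was higher. With TMM scaling 1 kidney gene was higher. The pancreas list turned from a median log2 ratio of -1.41 to 1.15 with that scaling, with none higher or lower. All 8 measured heart and muscle genes were lower. In the small intestine list Apoa4, Cdh17 and Fabp2 were higher of 5 measured. Rodent hepatocytes also express Apoa4, which stood at 959, 1196 and 1809 CPM against 0 to 0.665 CPM (median 0.0884). Vil1 and Cdx1 of that list were lower, and Cdx2 was under 1 CPM in both groups. Red cell genes were lower in 6 of 7, for example Hbb at 131, 166 and 300.3 CPM against 1708 to 2687 CPM (median 2220), and MWCNT_090 replicate 6 had the highest level of the 3. By TMM 2 of these were lower. The fetal liver genes Afp and H19 were higher, at 21.5, 28.2 and 29.2 and 0.906, 0.736 and 1.75 CPM, and the other 6 of that list were lower.

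Lung genes were low but present. Type 2 cell genes were lower in 12 of 13 (median log2 ratio -6.97), type 1 genes in 13 of 13 (-7.46), club and goblet genes in 8 of 9 (-7.23), ciliated genes in 10 of 11 (-7.02) and lung transcription factors in 15 of 17 (-6.21). Sftpc, surfactant protein C of type 2 cells, was at 3.05, 126 and 45.4 CPM against 8375 to 11637 CPM (median 9594). Ager, a type 1 cell receptor, was at 0.659, 28.9 and 10.7 CPM against 2234 to 2823 CPM (median 2463). Scgb1a1, the club cell secretory protein, was at 0.659, 54.5 and 21.1 CPM against 5190 to 6664 CPM (median 5981). Nkx2-1 stood at 0.247, 2.63 and 1.28 CPM against 236 to 354 CPM (median 290). In each case air_045 replicate 5 was lowest, MWCNT_090 replicate 5 highest, and no library reached the lung range. Matrix genes were lower in 12 of 14 (median -5.02). Fn1, the fibronectin that hepatocytes secrete into plasma, was an exception, at 2412, 2158 and 2337 CPM against 1573 to 2195 CPM (median 1989).

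Ubiquitous genes had 2 of 12 lower, none higher and a median log2 ratio of -0.77 that became 0.85 by TMM, with 2 higher and none lower. Eef1a1, a translation factor, was at 1667, 1599 and 1591 CPM against 2757 to 3143 CPM (median 2853). Actb, the cytoskeletal actin, was lower at 421, 464 and 518 CPM against 2654 to 3128 CPM (median 2848). Clock genes had 6 of 17 lower and a median of -1.23, which turned to 0.34 by TMM with 4 higher and 4 lower. Arntl, the core activator of the clock, was at 44.5, 36.5 and 30.6 CPM against 60.1 to 67.2 CPM (median 63.8).

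The largest ratios rested on genes nearly without counts in lung. With lung at 0 counts set to 3 over the group, the first 10 among genes at 10 CPM or more were Gsta2, Cfhr2, Amy1a, Cpn2, F9, Inhbc, Habp2, Cyp2d3, Hao1 and Pklr. Gsta2, a glutathione transferase, was at 199, 259.9 and 215 CPM with 1 count in the 9 lung libraries, a pooled ratio of 22870 with a 95% counting interval of 4103 to 903437. Habp2, a plasma protease, was at 237, 224 and 309 CPM with 2 counts in lung, a pooled ratio of 12983 with an interval of 3593 to 107227. Hao1, a peroxisomal oxidase of glycolate, was at 443, 476 and 401 CPM with 4 counts in lung. Another 31 genes at that level had 0 counts in lung, and their bounds place them lower than a gene with 1 count would stand. One was Agxt, a peroxisomal aminotransferase chosen after its values were seen, at 139, 156 and 219.7 CPM and at least 5859-fold higher. By group means and with such bounds, 236 genes were over 1000-fold higher and none was over 1000-fold lower, while 452 were over 100-fold higher and 581 over 100-fold lower.

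In the other direction the largest ratios among genes at 10 CPM or more in lung were those of Slc1a1, Slco4c1, Casz1, Scgb3a1, Gata5, Plagl1, Wnt3a, Prss12, Rimbp2 and Drp2. Casz1, a zinc finger transcription factor, was at 0.0823, 0.525 and 0.117 CPM against 148.4 to 198 CPM (median 181), a 737-fold difference. Slc1a1, a glutamate transporter, had 1 count in the liver-profile libraries and 28.4 to 42 CPM (median 34) in lung, a 999-fold difference of the means and a pooled ratio of 1057 with an interval of 190 to 41767. All but Rimbp2 had their counts in MWCNT_090 replicate 5 or, for Casz1, in all 3 libraries.

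The 3 liver-profile libraries were not equal among themselves. MWCNT_090 replicate 6 stood apart: 1816 of 15343 genes differed over 2-fold between it and MWCNT_090 replicate 5, and 2429 between it and air_045 replicate 5. Between the other pair the number was 435. It was the lowest of the 3 for 2 of the 18 plasma carrier genes and for 8 of 17 coagulation genes, and the highest for 13 and 7. Apob, the protein of low-density lipoprotein, was at 5124, 4032 and 1190 CPM, and Cp, the copper oxidase ceruloplasmin, at 2910, 2568 and 693 CPM. Without this library 1093 genes were higher and 6458 lower than in lung.

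The labels MWCNT_090 and air_045 could be compared within the liver profile, since the threshold on Alb did not use the treatment. The treatment, set and animal labels of these 3 libraries were taken as true, although their tissue label is in doubt. If a treatment label is wrong too, the comparison is not one of nanotube exposure. MWCNT_090 replicates 5 and 6 were compared with air_045 replicate 5 by edgeR's two-sided quasi-likelihood test with Benjamini-Hochberg adjustment. Treatment, exposure set and the state of the 1 air rat cannot be told apart here. The spread comes from the 2 MWCNT_090 libraries alone, and the single air library is assumed to vary like them. Of 12326 genes tested, 31 rose (0.252%) and 17 fell (0.138%), or 0.389% in either direction at an adjusted p below 0.05. At an unadjusted p below 0.05 there were 466. In simulated data of this design, with 40 genes raised at each size, the test recovered 65% of those raised 8-fold, 12.5% at 4-fold and 0% at 2-fold. It made 1 false call in a simulation of 12326 genes, the changed ones included. The simulation gave the 3 libraries the same spread for each gene, so it cannot check the assumption about the air library.

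The largest named falls were those of a hepatocyte transcription factor and of 2 signalling inhibitors. Onecut1, the hepatocyte transcription factor HNF6, stood at 2965 counts in air_045 replicate 5 and at 104 and 37 counts in the MWCNT_090 libraries. It was thus high in 1 library, the only air library of the comparison. Its log2 fold change was -4.92 ± 0.59 (SE), with an edgeR adjusted p of 1.3e-12. Cish and Socs2, feedback inhibitors of growth hormone and cytokine signalling, fell together. Cish was at 34.6, 1.26 and 1.75 CPM, a log2 fold change of -4.39 ± 0.61 with an edgeR adjusted p of 4.2e-09. Socs2 was at 44.5, 3.15 and 2.91 CPM, a change of -3.75 ± 0.59 with an edgeR adjusted p of 3.3e-07. Both MWCNT_090 libraries were far below the air library for all 3 genes. DESeq2 gave the same calls, with adjusted p of 1.4e-12, 3.5e-06 and 1.1e-05.

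Smaller falls were called for the transcription factors Foxo3, which insulin signalling restrains, and Klf9, which glucocorticoids induce. Foxo3 was at 31, 5.99 and 3.26 CPM (log2 fold change -2.65 ± 0.57, edgeR adjusted p 0.00198) and Klf9 at 56.7, 12.7 and 5.24 CPM (-2.58 ± 0.56, edgeR adjusted p 0.00219). Nampt, which makes NAD from nicotinamide, was at 144, 31.1 and 25.4 CPM (-2.23 ± 0.54, edgeR adjusted p 0.0131). Sds, which deaminates serine in periportal cells, was at 146.8, 20.7 and 38.6 CPM (-2.15 ± 0.54, edgeR adjusted p 0.0232). Atxn7l4 was at 70.9, 14.3 and 8.51 CPM (-2.54 ± 0.55, edgeR adjusted p 0.00204). The MWCNT_090 libraries lay below the air library in each case. By DESeq2 Foxo3 (adjusted p 0.0518) and Sds (adjusted p 0.172) were not called. Without MWCNT_090 replicate 6, in an edgeR fit that also held lung libraries, Foxo3 (adjusted p 0.0734) and Klf9 (adjusted p 0.0801) were not called.

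In lung the same labels gave other values for these genes. Between 4 MWCNT_090 and 3 air_045 lung libraries, in an edgeR fit of 5 groups, Onecut1 changed by 1.67 ± 0.81 (adjusted p 0.333), Cish by 0.14 ± 0.10 (adjusted p 0.579) and Socs2 by 0.26 ± 0.10 (adjusted p 0.209). Lung held little Onecut1, with means of 0.182 CPM in the 9 air libraries (18 counts in all) and 0.411 CPM in MWCNT_090. Its lung change, and the part of the difference that it adds, thus rest on few counts. The difference between the 2 kinds of library was -6.45 for Onecut1 (edgeR adjusted p 2.9e-04), -4.43 for Cish (adjusted p 3.8e-08) and -3.90 for Socs2 (adjusted p 4.3e-08). It passed the test for 7 of the 8 named genes that fell, and Sds was the exception with an adjusted p of 0.621. Without MWCNT_090 replicate 6 Foxo3 (edgeR adjusted p 0.0685) and Klf9 (adjusted p 0.0726) missed it too. That fit takes its spread largely from lung libraries (common coefficient of variation 0.114, against 0.324 among the 3 liver-profile libraries alone), so its p-values are too small for the liver-profile libraries. The 8 genes were also named for their falls in the same liver-profile libraries, so passing this test was not independent of the choice. Over all genes the lung contrast called 4.52% of 16583 and the difference 8.83%.

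**Figure D4:**
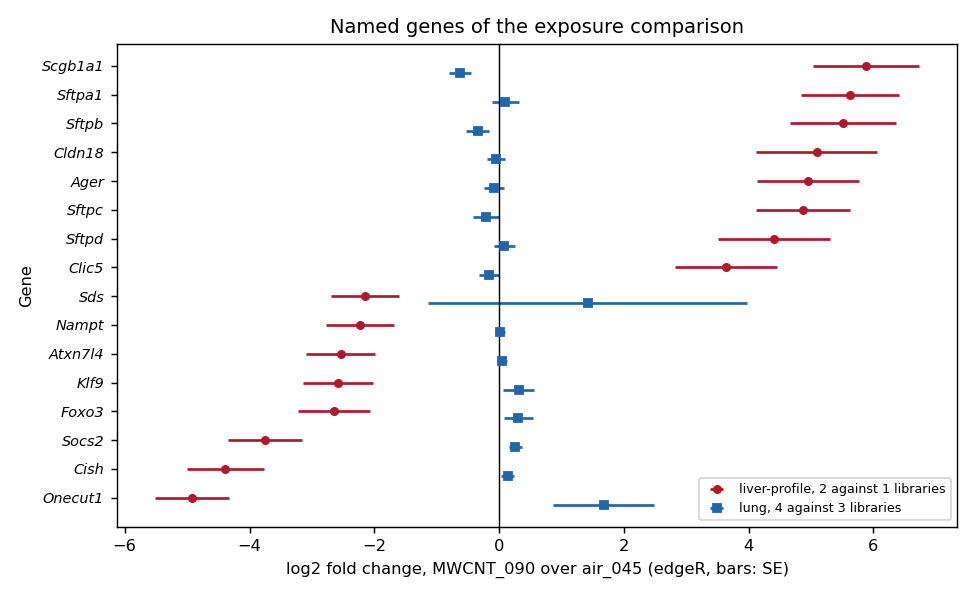
Log2 fold change of MWCNT_090 over air_045 with its standard error (edgeR), in the liver-profile libraries (red, 2 against 1) and in lung libraries (blue, 4 against 3), for the 16 named genes. The lung genes from Scgb1a1 to Clic5 lie at 3.64 to 5.88 in the liver-profile libraries and Sds to Onecut1 at -2.15 to -4.92, while the blue squares other than those of Sds and Onecut1 lie between -0.63 and 0.31.

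The genes that rose were mostly of another kind. Of the 31, 24 were at least 4-fold more abundant in air lung than in the liver-profile libraries, against 2 of the 17 that fell. Scgb1a1 rose by 5.88 ± 0.85 on the log2 scale (edgeR adjusted p 1.4e-08), Sftpa1 by 5.63 ± 0.79 (adjusted p 4.2e-09), Sftpb by 5.51 ± 0.85 (adjusted p 1.8e-07) and Sftpc by 4.87 ± 0.75 (adjusted p 1.8e-07). Sftpd, Ager, Cldn18 and Clic5, genes of type 2 and type 1 cells, completed the 8 named rises. By DESeq2 Clic5 was not called (adjusted p 0.0641). In the type 2 list 5 of 12 tested genes rose, in the type 1 list 5 of 13, in the club and goblet list 2 of 4 and in the lung endothelium list 2 of 15.

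A lung trace differed between the libraries. It was measured on genes that overlap the rises: 7 of its 8 genes were among the 31 and 6 among the 8 named. Over these 8 epithelial genes, the median level was 0.0235% of that of air_045 lung in air_045 replicate 5, and 1.25% (replicate 5) and 0.429% (replicate 6) of that of MWCNT_090 lung in the MWCNT_090 libraries. The genes kept nearly one proportion in each MWCNT_090 library: 0.883 to 1.36% in replicate 5 and 0.326 to 0.527% in replicate 6. The 17 other rises that were more abundant in lung stood at a median of 1.25% of MWCNT_090 lung in replicate 5 and 0.367% in replicate 6. When each library was reduced by its share of the lung profile, 7 genes were called higher and 19 lower. All 7 were among the 31 and 16 of the 19 were among the 17. Cish, Socs2, Onecut1, Foxo3, Klf9, Nampt, Sds and Atxn7l4 were among the 16. Of the trace genes, Scgb1a1 was still called higher after subtraction, with a log2 fold change of 8.48 against 5.88 before. Sftpa1, Sftpb, Sftpd, Ager and Sec14l3 were no longer tested. The share subtracted was set on these same genes, so their loss from the calls is no test of them.

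**Figure D5:**
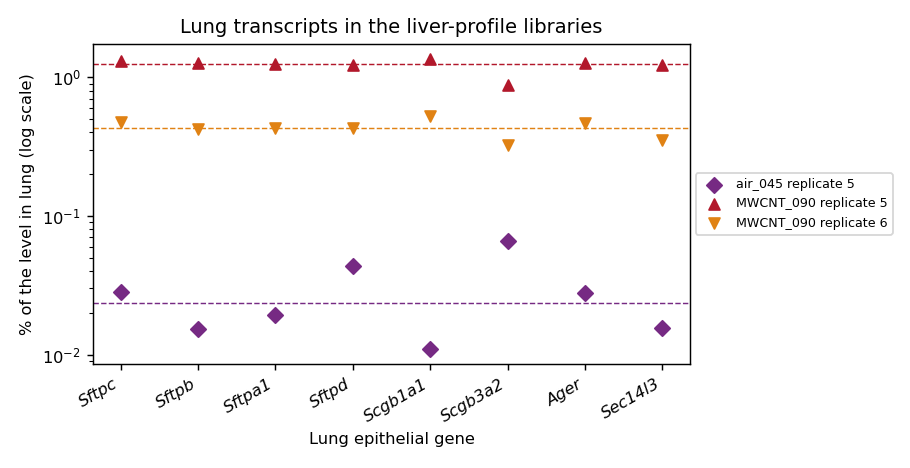
Level of 8 lung epithelial genes in each liver-profile library as a percentage of the mean level in lung libraries of the same set and treatment, on a log scale; dashed lines are the medians of the 8 genes. The medians are 0.0235% for air_045 replicate 5, 1.25% for MWCNT_090 replicate 5 and 0.429% for MWCNT_090 replicate 6.

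The trace was also set against exposed and air lung. A list of 17 genes that respond in nanotube-exposed lung, Serpinb10 with a fall, was taken from earlier results on these data. It had 106 counts in MWCNT_090 replicate 5 (95% exact Poisson interval 86.8 to 128) and 50 in replicate 6 (37.1 to 65.9). At the measured trace, MWCNT_090 lung would give 117 and 36.1 counts, and air_090 lung 30.0 and 9.92. Chia, a chitinase of the list, had 53 and 19 counts. Its level would be 71.8 and 22.2 counts at that share of MWCNT_090 lung and 15.1 and 4.97 of air_090 lung. In air_045 replicate 5 the 17 genes had 18 counts and Chia had 0. These intervals cover counting error only, and that of the 17 genes in replicate 6 lay above both of its expected counts. For Chia the interval in replicate 5 was 39.7 to 69.3 and held neither of its expected counts, lying between them. In replicate 6 it was 11.4 to 29.7, which holds the count expected from MWCNT_090 lung and not that from air_090 lung. The genes were listed for their response to nanotubes in these same data, so the gap between the expected counts is built in. The expected counts hold no background beyond the trace. Which lung the trace came from was not tested.

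Few members of the liver lists were called between the MWCNT_090 and air libraries. Calls were rare over all genes too, at 0.389%, so an absence of calls in lists of this size is not a result about them. None of 18 plasma protein genes, 17 coagulation genes, 13 acute phase genes, 28 P450 genes, 12 male-biased and 7 female-biased genes passed edgeR's test, and none of these lists had a member called by DESeq2. Members with an unadjusted p below 0.05 numbered 0 in each of these 6 lists. The median log2 fold change was 0.51 for plasma proteins, 0.15 for coagulation, 0.05 for acute phase and -0.07 for male-biased genes, beside 0.02 over all genes. Of 18 liver transcription factors 1 fell, Onecut1, and of 19 urea cycle and amino acid genes 1 fell, Sds. Unadjusted p was below 0.05 for 3 of the 18 and 1 of the 19, beside 466 of all 12326 genes. Foxa1 and Foxa2, named after their values were seen, changed by -1.44 (edgeR adjusted p 0.692) and -1.70 (adjusted p 0.215). The edgeR difference from the lung contrast was -1.29 (adjusted p 0.0112) and -1.49 (adjusted p 1.6e-04), with the limit on its p-values given above. None of 17 clock genes was called by edgeR among the 3 libraries. Bhlhe40, a clock-linked repressor, was at 186, 48 and 39 CPM (log2 fold change -1.98 ± 0.55, edgeR adjusted p 0.0791), and Nr1d1, which represses Arntl, at 8.81, 9.04 and 48.9 CPM, high in 1 of the 2 MWCNT_090 libraries. The edgeR test of the difference from the lung contrast called Bhlhe40 (-1.79, adjusted p 6.5e-05) and Ciart (1.72, adjusted p 0.0338), with the limit on its p-values given above. Ciart rested on 7, 16 and 11 counts in the liver-profile libraries. Its log2 fold change among them was 1.45, and 1.02 with the lung trace subtracted. By the simulated data above, changes of 2-fold were not detectable with these 3 libraries.

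A liver trace was also measured in libraries outside the 3. Over 18 liver genes the median level was 1.75% of the liver-profile level in air_045 replicate 6, 1.01% in MWCNT_011 replicate 2 and 0.620% in MWCNT_180 replicate 1, and 0.00664% in air_045 replicate 3. The 9 lung libraries held 0.00662 to 0.0330%, and all 53 libraries without the label 0.00221 to 0.118%. Across the 18 genes, Pearson's r of log2 levels with the liver profile was 0.971, 0.968 and 0.958 in the first 3 and 0.0903 in the last. In the 53 libraries without the label r ran from -0.30 to 0.913 (median 0.347) and was over 0.8 in 6. One of the 6 was MWCNT_090 replicate 4 (r 0.891, median level 0.118%), a library of the lung contrast. Without it Onecut1 changed by 1.03 in lung (edgeR adjusted p 0.676), where all 7 libraries gave 1.67. These r values are across genes of 1 library and describe it only.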

How the data were processed

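The authors deposited 1 table of raw, whole-number counts with 60 libraries as columns and 30045 gene symbols. Per the submitters' processing notes, the authors used bcl2fastq 2.19, Trimmomatic 0.35, HISAT2 2.1.0, Cufflinks (no version), HTSeq 0.11.2 and SAMtools 1.8. Build, annotation and any use of strand in counting were not given in the sources used here. Overlapping antisense genes therefore cannot be told apart. A date stood in place of a symbol in 27 cases, which held at most 0.214% of a library's counts. Total counts were 8583425 to 12144580 in the liver-profile libraries and 10039448 to 13669995 in the 9 lung libraries.

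Levels are CPM on library totals, and ratios compare group means. A group at 0 was set to 3 counts over the group. Genes under 1 CPM in both groups were left out of counts of higher and lower genes. The comparison of MWCNT_090 with air_045 used edgeR 4.0.16 in R 4.3.3 (quasi-likelihood F-test, robust, TMM, filterByExpr with a minimum count of 10, adjusted p below 0.05) on the 3 liver-profile libraries. A second edgeR fit held 5 groups (liver-profile air_045 and MWCNT_090; lung air_045, air_090 and MWCNT_090) and gave the lung contrast and the difference between the 2 kinds of library. The SE is the log2 fold change divided by the square root of F. DESeq2 1.42.0 was an alternative. For the lung trace, 8 epithelial genes gave each library's percentage of the lung profile of the same set and treatment. Subtracting that profile before the fit was added after seeing the data. Other alternatives were scaling, filters, fold, exposure set and leaving out libraries. The methods were tested on simulated data.

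Genes were named by a rule: the 20 most abundant in the liver-profile libraries, the 10 largest ratios each way at 10 CPM or more, up to 6 members of each list, a fixed group, and the 8 largest called changes each way at 5 CPM or more. Symbols with no gene name were passed over, 6 among the rises and 6 among the falls. Of 472 list symbols 466 were found, 8 of them through a RefSeq synonym. The libraries, lists and rules were chosen with earlier results of these data known. Promoter sequences are from RefSeq's GRCr8 table, and gene names were checked against RefSeq (19073 symbols matched).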

Additional observations from a re-analysis of the deposited data

Results flagged for a closer look

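For each gene of the text a gap test on the range of the 6 values was run on the air_090 lung libraries, and 7 of 94 genes had 1 library apart, where chance gives about 5%. The high ones were Krt19 (354 CPM) and Sftpc (11637 CPM) in replicate 4, with ste2 (0.897 CPM) there as well, F9 and Gsta2 in replicate 2 (0.0909 CPM, 1 count each), and Habp2 in replicate 3 (0.0994 CPM, 1 count). A gap test is met at once by 1 count beside values of 0, so the chance share does not hold for F9, Gsta2 and Habp2. Nkx2-1 was low in replicate 5 (236 CPM). These 6 libraries are a reference for the liver-profile libraries. The direction against lung was the same for each of the 7 genes when any 1 of the 6 was left out. Since the 2 kinds of library did not overlap for these genes, this could not come out otherwise.

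The contrast of MWCNT_090 with air_045 differed between liver-profile and lung libraries, by edgeR's test of the difference, for 15 named genes. On the log2 scale the difference was 6.66 for Scgb1a1, 6.00 for Sftpb, 5.66 for Sftpa1, 5.34 for Cldn18, 5.20 for Sftpc, 5.19 for Ager, 4.50 for Sftpd and 3.97 for Clic5. These 8 are lung genes, and their values stand beside the lung trace given above (1.25% and 0.429% in the MWCNT_090 libraries, 0.0235% in the air library). The difference was -6.45 for Onecut1, which had few counts in lung, -4.43 for Cish, -3.90 for Socs2, -2.82 for Foxo3, -2.75 for Klf9, -2.46 for Atxn7l4 and -2.13 for Nampt. After subtraction of the lung trace all 7 were called lower by edgeR in the liver-profile libraries. Whether treatment, exposure set or a difference between the animals goes with these falls cannot be told apart. All 15 genes were named for their changes in the same liver-profile libraries, so these differences are not independent of the choice. The p-values of the test of the difference are too small for those libraries, as given above.

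A liver signal appeared in 3 libraries that no comparison uses. Alb took 0.224% of counts in air_045 replicate 6 (95% Wilson interval 0.22192 to 0.22623%), 0.143% in MWCNT_011 replicate 2 (0.14053 to 0.14488%) and 0.0827% in MWCNT_180 replicate 1 (0.080688 to 0.084732%). All 3 were above the highest of the 53 libraries without an outlier label, at 0.0147%.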

How the results depend on the processing

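With TMM, 2199 genes were higher and 3659 lower in the liver-profile libraries than in lung, and with DESeq2's size factors 2283 and 3658, since both raise all ratios. Both counts stayed within 1.5 times of the reported ones without the filter, at a fold of 2, within either set and when both sides were MWCNT_090. Leaving out 1 library gave 1060 to 1093 higher and 6458 to 7438 lower.

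Between MWCNT_090 and air_045 liver-profile libraries DESeq2 called 10 rises and 9 falls, of which 10 and 7 were also edgeR's. Subtracting the lung trace left 7 rises. The 5-group fit called 1748 rises and 722 falls, and without 1 of the 2 MWCNT_090 libraries it called 729 to 3589 rises and 412 to 2616 falls. Its spread comes largely from lung, as its construction shows. The lower ends are without replicate 6. In the lung contrast, lung libraries alone gave 963 rises and 552 falls, where the 5-group fit gave 580 and 170. Leaving out 1 lung library gave 329 to 445 rises and 63 to 110 falls. The cause was not tested. The difference between the 2 kinds of library called 974 genes upward and 490 downward, and 586 to 3321 and 324 to 2496 without 1 of the MWCNT_090 liver-profile libraries. Nampt in lung, at 0.016 with all 7 libraries, ran from -0.017 (without MWCNT_090 replicate 2) to 0.046 (without MWCNT_090 replicate 3), with -0.0046 without MWCNT_090 replicate 4, and was called in none of these fits. Sftpb in lung was called by the fit of lung libraries alone (log2 fold change -0.34, adjusted p 0.0214). Scgb1a1 in lung was not called without any 1 of the 7 lung libraries. Without the lung trace Sftpc, at a log2 fold change of 3.52, was not called. Scgb1a1 was still called, against an air library set to 0 counts by the subtraction, and the other named lung genes were no longer tested.

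With 2 libraries against 1, 2-fold changes were beyond reach, and set, treatment and library preparation cannot be told apart. No paired analysis was possible because replicate numbers only name rats of separate groups.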
